A study of Mus musculus with 4 samples.

Results

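The *Lhx1*-positive neurons of day 11 gastruloids were taken as the day 11 cells with at least 2000 UMIs and under 20% mitochondrial UMIs in which *Lhx1* was found with 1 or more UMIs, at least 2 of the 4 neuron genes *Elavl3*, *Ina*, *Stmn2* and *Dcx* were found, and *Atoh1* had under 2 UMIs. The members were thus selected on the measured UMIs of these genes, whose levels are given as descriptions. A UMI, or unique molecular identifier, marks 1 captured mRNA molecule. The rule selected 299 of the 8730 day 11 cells that passed the filters (3.43%, 95% interval 3.05% to 3.83%), out of 31330 cells deposited over the series. Gastruloids are aggregates of mouse embryonic stem cells that elongate and form derivatives of several germ layers in culture. They were grown from the Zx1 line in N2B27 medium, with a Chiron pulse (a Wnt pathway agonist) early in culture and bFGF, VEGF and ascorbic acid added from day 4. Cells were dissociated with trypsin at days 4, 5, 6 and 11 and captured with a 10x Chromium 3′ kit, with 1 library per day. All groups share the Zx1 line, which is a single genetic background, and gastruloids were pooled within each library, so the spread between gastruloids or cultures was not measured. All intervals below are exact 95% intervals (Clopper-Pearson for shares, Poisson for sums, conditional binomial for ratios) that cover counting error only, and no test between conditions was possible.

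*Lhx1* encodes a LIM homeodomain transcription factor. In the developing spinal cord and hindbrain it is switched on as interneurons leave the cell cycle, in several dorsal and ventral classes, often beside its close relative *Lhx5*. Inhibitory interneurons of these regions are known for *Pax2*, for GABA synthesis by the *Gad1* and *Gad2* enzymes and for vesicle loading by the *Slc32a1* transporter, while excitatory interneurons use the vesicular glutamate transporter *Slc17a6*. *Lhx1* also has roles in early mesoderm and in the nephric lineage.

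The members were set beside 295 *Lhx1*-negative neurons, day 11 cells with at least 3 of the 4 neuron genes and 0 *Lhx1* UMIs, and beside 713 neural progenitors, cells with *Sox2*, with at least 1 of *Hes5* and *Fabp7* and with at most 1 neuron gene. Depth was close in the neuron sets, with a median of 9698 UMIs per member (2916 to 141204) and 10849 in the comparison set (2671 to 176705). Levels are given in CPM, the UMIs of a gene divided by all UMIs of the set and multiplied by 1000000, and a gene was called higher or lower when (CPM + 10) differed at least 2-fold and the higher set had 50 CPM or more. Over the series the libraries held 149169498 to 236714826 UMIs, and day 11 shared 16 to 23 cell barcodes with each other day, of which 1 on day 4 and 1 on day 6 were those of members. Marker genes of other cell types (3 or more of a list) were found in 70 members (23.4%) and in 78 comparison cells (26.4%), and 36 members (12.0%) against 50 comparison cells (16.9%) were among the 8% of day 11 cells with the highest doublet scores. These cells were kept, and for the counts over all genes and for the lists most affected the values without them are given as well.

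Within the rule, *Lhx1* was found with 1 to 29 UMIs per member, with a median of 5 and a sum of 1897 UMIs, or 423.9 CPM (405.0 to 443.4). In neural progenitors *Lhx1* was at 4.09 CPM. It was found in 0.985% of 1625 cardiomyocyte reference cells (median 20192 UMIs) and in 0.175% of 573 endothelial reference cells (median 20856 UMIs), as a background level whose source was not tested. Of the 370 day 11 cells with a *Lhx1* UMI, 299 were members (80.8%). Among the 567 cells with 3 or more neuron genes, 272 held *Lhx1* (48.0%, 43.8% to 52.2%), and among the 429 cells with all 4, 214 did (49.9%). All 4 neuron genes were found in 211 members, 3 in 56 and 2 in 32.

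The cells at the border of the rule differed from the bulk of the members. Among the 32 members with 2 neuron genes, the neuronal tubulin gene *Tubb3* was found in 93.8%, *Lhx5* in 71.9%, the progenitor gene *Sox2* in 46.9% and the proneural gene *Neurog2* in 31.2%. Among the 35 *Lhx1*-positive cells just outside, with 1 neuron gene, *Tubb3* was found in 71.4%, *Lhx5* in 42.9%, *Sox2* in 51.4% and *Neurog2* in 48.6%. The 31 *Lhx1*-positive cells with 0 neuron genes were deeper, at a median of 23192 UMIs, and held *Tubb3* in 6.45% and the atrial myosin gene *Myl7* in 87.1% of cells (5171 CPM). *Myl7* was also found in 38.5% of members (2745 CPM) and 36.3% of *Lhx1*-negative neurons (1111 CPM) at their lower depth. Another 5 *Lhx1*-positive cells, with at least 2 neuron genes, were outside the rule because they had 2 or more *Atoh1* UMIs. Just inside the rule on *Lhx1*, 35 members had 1 UMI of it.

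The label of neurons held for genes that the rule did not use. *Tubb3* was found in 297 of 299 members. Of 26 pan-neuronal genes, *Tubb3* among them, a median of 15 was found per member. The median was 17 in *Lhx1*-negative neurons, 3 in neural progenitors and 1 in cardiomyocyte reference cells. Members needed 2 neuron genes and comparison cells 3, so the medians of 15 and 17 come from unlike rules. Of the 18 pan-neuronal genes with 50 CPM or more, 18 were called higher than in neural progenitors, where 8.61% of 3556 genes were called higher, and 0 were called higher or lower than in *Lhx1*-negative neurons. The 26 genes summed to 456.8 CPM in progenitors, so many of the 18 passed the floor through the members alone. Progenitors were also chosen for at most 1 neuron gene, so the count against them is a description only. The values nearest to a call were those of *Nhlh2*, a bHLH factor of newborn neurons, at 377.0 against 231.5 CPM, and of *Gap43*, a growth cone protein, at 349.5 against 483.2 CPM. All 15 cell cycle genes were called lower than in progenitors, where 6.02% of genes were called lower. Of these 15, 5 had 50 CPM or more in either neuron set, so the others passed the floor through the progenitors alone. As a label, *Cartpt*, the gene of the CART neuropeptide, covered only part of the set, since it was found in 135 of 299 members.

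To see what the members share beyond *Lhx1*, levels were compared across the 3338 genes with 50 CPM or more in either neuron set. In members 63 genes (1.89%) were called higher and 28 (0.839%) lower, and the median log2 ratio over all 3338 genes was -0.02. Without the cells that held markers of another cell type, 49 genes (1.42%) were called higher and 45 (1.31%) lower, and 24 genes in each direction were shared by both comparisons. Of the 39 genes no longer called higher, 10 belong to the cardiomyocyte or skeletal muscle lists. All 8 cardiomyocyte list genes, such as *Myl7* (2745 against 1111 CPM) and *Ttn* (532.2 against 152.8 CPM), were called higher in members, and their summed level was 7176 against 2686 CPM. At least 3 of these 8 genes were found in 50 members and 58 comparison cells, and without other-type cells the sums were 100.6 and 75.7 CPM and 0 of the 8 were called. Of *Mylpf*, a skeletal muscle myosin light chain, 3 cells held 94.1% of the members' UMIs, and of the troponin gene *Tnnt1* 3 cells held 68.2%. The other genes called higher or lower and named below kept their direction without those cells.

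**Figure D1:**
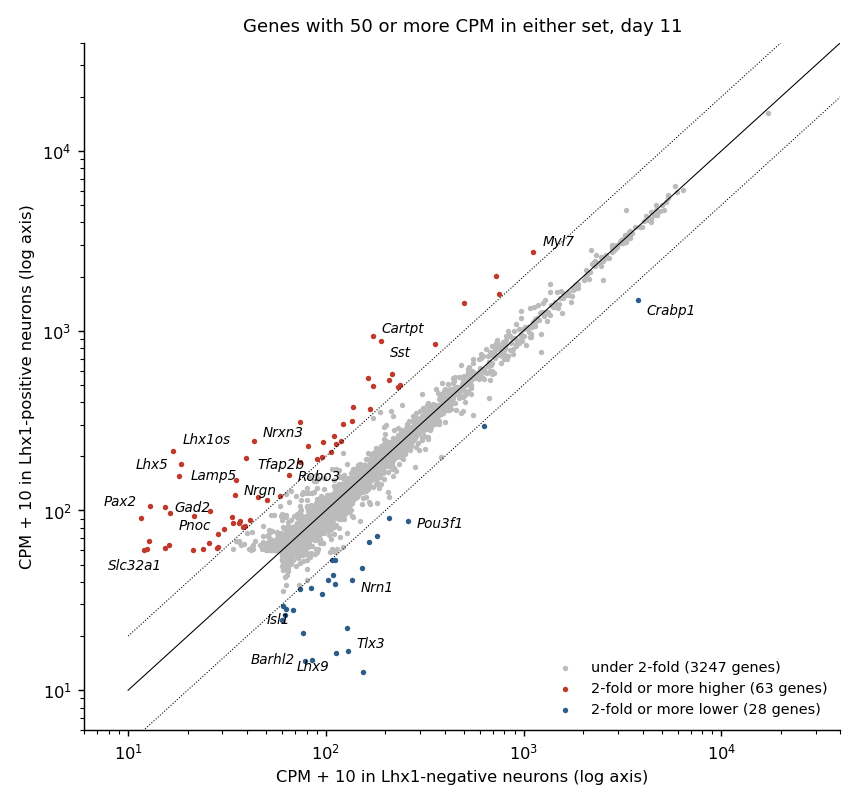
Level of each of the 3338 genes in *Lhx1*-positive neurons (vertical axis) and *Lhx1*-negative neurons (horizontal axis), as CPM + 10 on log axes. The solid line marks equal levels and the dotted lines a 2-fold difference: 63 genes lie above the band, among them *Lhx5*, *Pax2*, *Gad2*, *Cartpt* and *Sst*, and 28 lie below it, among them *Tlx3*, *Lhx9* and *Barhl2*.

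The gene with the highest ratio of (CPM + 10) in members was the neighbour of *Lhx1*. *Lhx1* lies at chr11:84518284-84525535 on the minus strand (GRCm38), and *Lhx1os*, a long noncoding RNA gene, starts 124 bases away and runs in the opposite direction at chr11:84525660-84535831. The sequence between both starts is shown because the pair was found together. It is printed on the *Lhx1* strand from the part of the RefSeq promoter window of *Lhx1* that lies before the annotated gene (chr11:84525536-84525784), with the stretch between the annotated starts in capitals and the start of *Lhx1os* in lower case.
Lhx1 and Lhx1os, bases between the starts: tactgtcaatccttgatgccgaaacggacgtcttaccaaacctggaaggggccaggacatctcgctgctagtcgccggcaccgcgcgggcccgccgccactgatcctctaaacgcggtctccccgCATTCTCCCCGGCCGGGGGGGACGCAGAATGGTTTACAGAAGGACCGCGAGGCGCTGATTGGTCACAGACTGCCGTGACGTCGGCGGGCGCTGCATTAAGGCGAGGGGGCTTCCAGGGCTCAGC
*Lhx1os* gave 916 UMIs in members and 33 in *Lhx1*-negative neurons, or 204.7 against 6.91 CPM, a ratio of 29.6 (21.0 to 43.3). It was found in 87.0% of members and 7.12% of the comparison cells, or in 67.0% and 3.45% after each cell was thinned to 5000 UMIs, a step that left out 11 members and 5 comparison cells. Of the 351 day 11 cells with *Lhx1os*, 260 (74.1%) were members. The share of members with *Lhx1os* was 60.0%, 82.9%, 92.6% and 93.9% in cells with 1, 2 to 3, 4 to 7 and 8 or more *Lhx1* UMIs.

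The related LIM gene *Lhx5* (chr5:120431699-120441223) was found in most members. It was at 145.7 CPM (134.7 to 157.3) in members and 8.16 CPM in *Lhx1*-negative neurons, a ratio of 17.9 (12.9 to 25.3). A UMI of *Lhx5* was found in 80.6% of members and 9.49% of comparison cells, and in 56.2% and 3.79% at 5000 UMIs. In cardiomyocyte and endothelial reference cells it was found in 0.492% and 1.40%, and the same shares were 0.738% and 0.524% for *Pax2*, 1.54% and 1.40% for *Cartpt* and 0.923% and 0.175% for *Sst*. Of the 21 further LIM homeobox and LIM partner genes, *Lhx5* was the sole gene called higher, and *Lhx2*, *Lhx9* and *Isl1* were called lower. The cofactor gene *Ldb1* stood at 31.3 and 29.3 CPM.

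Paired box genes of inhibitory interneurons followed the same split. *Pax2* (chr19:44756045-44837871) was at 95.4 CPM (86.6 to 104.9) in members and 2.93 CPM in *Lhx1*-negative neurons, a ratio of 32.6 (19.2 to 60.1), and was found in 54.5% and 3.39% of cells. *Pax8* was at 49.6 and 1.88 CPM, just under the floor for a call. At least 1 of *Lhx5*, *Pax2* and *Pax8* was found in 271 members (90.6%, 86.7% to 93.7%) and in 33 comparison cells (11.2%). *Tfap2b*, an AP-2 transcription factor gene, was at 186.6 and 29.5 CPM, a ratio of 6.32 (5.28 to 7.61), and was found in 56.9% and 15.6% of cells. Read from the gene to the cells, 163 of the 207 day 11 cells with *Pax2* were members (78.7%), as were 241 of 339 with *Lhx5* (71.1%) and 104 of 131 with *Pax8* (79.4%). *Tfap2b* was less tied to the set, with 170 of 380 cells (44.7%). *Pax2* and *Pax8* are also genes of the nephric lineage. The nephric list of 9 genes, which holds *Pax8* but leaves out *Pax2*, summed to 88.3 CPM in members and 34.3 CPM in the comparison set, with 0 called. Without other-type cells the sums were 93.7 and 21.1 CPM, and *Pax8* passed the floor and was called higher. Most of the members' sum was *Pax8* itself.

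The transmitter genes were mostly those of GABA and glycine. *Gad2* (chr2:22622205-22693874), an enzyme that makes GABA, was at 94.7 CPM (85.9 to 104.2) in members and 5.44 CPM in *Lhx1*-negative neurons, a ratio of 17.4 (11.7 to 27.0). It was found in 53.9% of members and 5.08% of comparison cells, or in 37.5% and 2.41% at 5000 UMIs, while cardiomyocyte reference cells held it in 15.7% of cells unthinned and 6.14% thinned. The source of these UMIs in cardiomyocyte reference cells was not tested. *Gad1*, the other GABA enzyme, was at 20.6 and 0.628 CPM, from 92 and 3 UMIs (ratio 32.7, 10.9 to 161.7). *Slc32a1*, which loads GABA and glycine into vesicles, was at 50.1 and 2.09 CPM (ratio 23.9, 12.8 to 50.6) and was found in 38.1% and 2.71% of cells. *Slc6a5*, the neuronal glycine transporter, gave 58 UMIs in 53 members (17.7%) and 0 in the comparison set, where 0 of 295 cells allows a share of cells with a UMI of up to 1.24%. Positive members mostly held 1 UMI of it, so this does not limit the share of cells that express the gene. Of the 55 day 11 cells with *Slc6a5*, 53 were members (96.4%), and so were 114 of 156 with *Slc32a1* (73.1%), but 65 of 190 with *Gad1* (34.2%) and 161 of 501 with *Gad2* (32.1%). *Abat*, an enzyme that breaks down GABA, was at 75.5 and 26.6 CPM. Of the 6 genes of the GABA and glycine list, the 3 with 50 CPM or more were all called higher, and the list summed to 255.8 against 37.5 CPM, or to 401.8 against 40.6 CPM without other-type cells. With these sums the genes could pass the floor through the members alone, so a call could only be higher.

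The glutamate transporter *Slc17a6* showed the opposite order. It was at 4.25 CPM (2.56 to 6.63) in members and 33.5 CPM in *Lhx1*-negative neurons, a ratio of 0.127 (0.0744 to 0.205), and was found in 13 of 299 and 73 of 295 cells. At these levels it is under the floor of 50 CPM for a call, and of the 4 glutamate genes 1 had 50 CPM or more and 0 were called. Members with at least 1 of *Gad1*, *Gad2*, *Slc32a1* and *Slc6a5* numbered 208 (69.6%, 64.0% to 74.7%), against 18 comparison cells (6.10%, 3.66% to 9.47%). At least 2 of these genes were found in 124 members (41.5%) and 6 comparison cells. A GABA or glycine gene and *Slc17a6* were found together in 4 members, and 82 members (27.4%) held neither kind, which at this depth does not show that they lack a transmitter. Without other-type cells the shares with at least 1 GABA or glycine gene were 69.0% and 4.15%. Of 13 genes of acetylcholine and monoamine transmission, 0 reached 50 CPM, with a sum of 14.5 CPM in members.

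A noncoding neighbour also accompanied *Slc32a1*. *Slc32a1* starts at chr2:158610767 on the plus strand, and the transcript gene *Gm14204* (chr2:158595472-158610723) runs away from it on the minus strand, 43 bases upstream. The 250 bases before the RefSeq start of *Slc32a1* (chr2:158610508-158610757, plus strand) are printed because both genes were called higher. Capitals mark the 34 bases of it that lie between the annotated starts, and the printed stretch ends short of the start of *Slc32a1* given above, which differs from the RefSeq start.
Slc32a1 and Gm14204, part of the bases between the starts: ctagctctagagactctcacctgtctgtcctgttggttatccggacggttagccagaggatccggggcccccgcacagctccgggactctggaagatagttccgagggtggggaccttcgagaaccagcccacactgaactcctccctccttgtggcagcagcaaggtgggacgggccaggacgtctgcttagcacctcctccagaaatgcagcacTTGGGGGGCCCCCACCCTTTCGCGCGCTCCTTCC
*Gm14204* was at 51.4 CPM in members and 2.51 CPM in *Lhx1*-negative neurons, a ratio of 20.5 (11.5 to 40.2). It was found in 41.5% and 2.37% of cells, and the shares at 5000 UMIs were 24.7% and 2.07%.

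**Figure D2:**
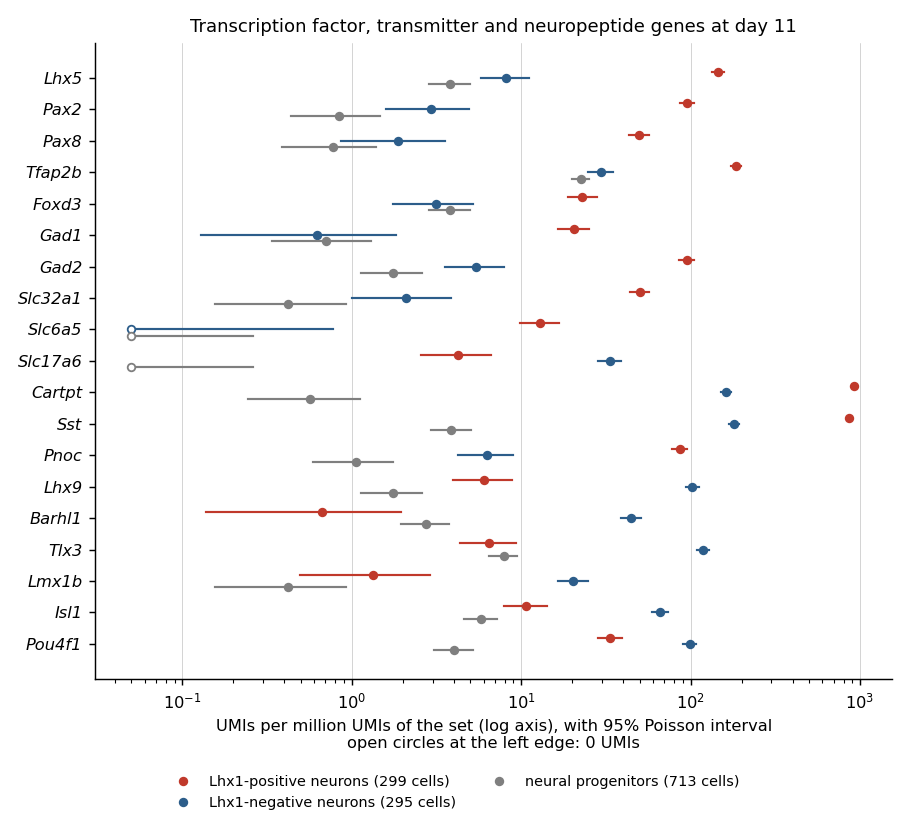
Levels of transcription factor, transmitter and neuropeptide genes in *Lhx1*-positive neurons (299 cells, red), *Lhx1*-negative neurons (295 cells, blue) and neural progenitors (713 cells, grey), in CPM on a log axis with 95% Poisson intervals; open circles mark 0 UMIs. From *Lhx5* to *Pnoc*, apart from *Slc17a6*, the red points lie to the right, and from *Lhx9* to *Pou4f1* the blue points do.

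Neuropeptide genes also differed between the sets. *Cartpt* (chr13:99898489-99901091), which is in the label, is given as a description: 4124 UMIs in members and 776 in *Lhx1*-negative neurons, or 921.5 against 162.4 CPM, found in 45.2% and 20% of cells. *Sst* (chr16:23889573-23890958), the somatostatin gene, was at 866.7 CPM in members and 180.8 CPM in the comparison set, a ratio of 4.79 (4.45 to 5.17), and was found in 44.8% and 8.47% of cells. *Pnoc* (chr14:65400673-65425472), which encodes the nociceptin precursor, was at 86.3 and 6.28 CPM, a ratio of 13.7 (9.47 to 20.6), and was found in 31.1% and 4.75% of cells, beside 6.11% of endothelial reference cells. These 3 genes were the sole neuropeptide genes with 50 CPM or more among 31 listed, and 8 of the list were at 0 UMIs in members. *Npy*, another peptide gene of inhibitory neurons, stood at 48.3 and 31.2 CPM. At least 1 of *Cartpt*, *Sst* and *Pnoc* was found in 210 members (70.2%) and 67 comparison cells (22.7%), and all 3 in 41 and 4 cells.

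The peptide levels were uneven from cell to cell. In the 135 members with *Cartpt* the median was 9 UMIs and the highest 216, and 61 members had 10 or more. In the 134 members with *Sst* the median was 13 UMIs and the highest 252, and 77 members had 10 or more, against 14 comparison cells. The median of *Sst* in positive cells was 13 in both sets, while the share of cells with *Sst* differed. For *Cartpt* the median of positive comparison cells was 3. Genes for peptide processing were alike in level, with 0 of 7 called; *Pcsk1n*, an inhibitor of a peptide-cutting protease, was at 346.6 and 288.2 CPM, and *Cpe*, a carboxypeptidase of secretory granules, at 128.0 and 141.7 CPM.

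The RefSeq promoter windows of *Cartpt* and *Sst* both held the 8-base palindrome TGACGTCA, known as the cyclic AMP response element. The 30 bases about each match are shown because it was found in these 2 genes when the promoters of the 15 genes with the highest and the 15 with the lowest ratios were searched. Of the 15 higher genes 13 have a RefSeq window, with 18 windows in all, and of the 15 lower genes 10 have one. The printed bases run in the direction of the gene (minus strand, GRCm38), with the motif in capitals. They lie at chr13:99900777-99900806 for *Cartpt* and chr16:23890874-23890903 for *Sst*. The motif lies at bases -112 to -105 from the RefSeq start of *Cartpt* and -48 to -41 from that of *Sst*, but within the gene spans given above, which in the GRCm38 annotation begin further upstream.
Cartpt: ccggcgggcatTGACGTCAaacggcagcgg
Sst: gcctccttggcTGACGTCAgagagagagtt
Over all 32851 RefSeq windows of 300 bases, 588 (1.79%) held TGACGTCA, which reads the same on both strands. It was in 0 of the 10 lower genes with a window. The homeodomain core TAATTA, also searched on both strands, was in 5.29% of all windows, in 0 of the 13 higher genes and in *Tmem163* among the lower ones. Of the other 2 motifs searched, the E-box CAGCTG was in 16.3% of windows, in *Mylpf* and *Pax2* among the higher genes and in *Gm28050*, *Isl1* and *Pou4f1* among the lower ones, and the TATA box TATAAA was in 13.6% of windows and in *Tnnt1*. A match describes the letters only, and binding was not measured.

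*Lamp5* and *Nrxn3* were the other neuronal genes with wide differences. *Lamp5* (chr2:136052239-136069917), a membrane protein gene of GABA neurons, was at 172.1 and 8.58 CPM, a ratio of 20.1 (14.6 to 28.2), and was found in 55.9% and 4.07% of cells. *Nrxn3*, a presynaptic adhesion protein, was at 234.6 and 33.1 CPM, a ratio of 7.10 (6.00 to 8.44), and was found in 83.3% and 19.0% of cells, beside 18.5% of the deeper endothelial reference cells. Of the 23 genes of synaptic vesicles and release, 8 had 50 CPM or more, and *Nrxn3* was the sole gene called higher. *Nrgn*, a calmodulin-binding protein gene, was at 137.6 and 25.3 CPM and was found in 36.1% and 15.6% of cells.

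Among 35 axon guidance and adhesion genes, 13 had 50 CPM or more, of which *Robo3* was called higher and *Robo2* lower. *Robo3*, known for its part in midline crossing of commissural axons, was at 147.0 CPM (136.0 to 158.7) and 54.8 CPM, a ratio of 2.68 (2.32 to 3.11), and was found in 53.5% and 33.2% of cells. *Robo2* was at 26.6 and 64.2 CPM. *Robo1*, at 71.1 and 70.7 CPM, and the netrin receptor gene *Dcc*, at 196.9 and 182.3 CPM, were near equal, with ratios of 1.01 (0.859 to 1.17) and 1.08 (0.982 to 1.19).

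Genes of the dI1, dI3 and dI5 classes of spinal interneurons were low in members. *Tlx3* (chr11:33200752-33203589), a homeobox gene of excitatory dorsal interneurons, was at 6.48 CPM in members and 118.7 CPM in *Lhx1*-negative neurons, a ratio of 0.0546 (0.0362 to 0.0793), and was found in 12 of 299 and 132 of 295 cells. *Lhx9* (chr1:138825186-138848577) was at 6.03 and 102.5 CPM, and *Barhl2* at 4.69 and 74.7 CPM; both mark the dI1 class that arises from *Atoh1* progenitors. The 4 dI1 genes with 50 CPM or more were all called lower in members. The 5 genes of the list summed to 49.4 CPM in members, so the 4 passed the floor through the comparison set alone. A call could therefore only be lower. The rule also keeps cells with 2 or more *Atoh1* UMIs out of the members and leaves 43 of them in the comparison set. With *Atoh1* at 0 UMIs in both sets, the log2 ratio was -2.50 in place of -2.81 for *Lhx9*, -2.27 in place of -2.53 for *Barhl2* and -1.50 in place of -2.43 for *Lhx2*, and it was -1.50 in place of -1.32 for *Pou4f1*. Without other-type cells 5 dI1 genes were called lower. *Lmx1b*, a dI5 gene, gave 6 UMIs in members and 97 in the comparison set. *Isl1*, shared by dI3, motor and sensory neurons, was at 10.7 and 66.3 CPM, but it was found in 21.9% of cardiomyocyte reference cells as well. *Pou4f1*, of several excitatory and sensory classes, was at 33.5 and 98.8 CPM and was found in 16.4% and 50.8% of cells.

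Among the class lists, the one with most genes called higher was that of dI4 and its late-born counterpart dILA. All 4 of its genes with 50 CPM or more (*Pax2*, *Lhx5*, *Tfap2b* and *Gad2*) were called higher, and the list of 8 summed to 605.1 against 57.8 CPM. Each of the 4 was under 50 CPM in *Lhx1*-negative neurons and passed the floor through the members alone, so a call could only be higher. The same holds for *Pax2* and *Lhx5* in the lists that follow. Without other-type cells 5 were called higher, and the sums were 968.5 and 78.1 CPM. At least 3 genes of this list were found in 191 members (63.9%) and 10 comparison cells (3.39%). For dI6, V0 and V1 the called genes were *Pax2* and *Lhx5* alone, and for V2b *Lhx5* alone. At least 3 V1 genes were found in 62.2% of members and 22.4% of comparison cells. In the dI2 list *Lhx5* was called higher and *Pou4f1* lower, and at least 3 of its 4 genes were found in 32 members (10.7%) and 2 comparison cells (0.678%). The V0 genes *Evx1* and *Evx2* were at 0 UMIs. *Dmrt3*, of dI6, was low but higher in members, at 5.81 and 1.26 CPM (ratio 4.63, 1.86 to 13.7). *En1*, the defining gene of V1, did not separate the sets, at 81.1 and 62.0 CPM and in 51.5% and 52.2% of cells. For V2a, *Vsx1*, *Lhx3*, *Lhx4* and *Sox14* were at 0 UMIs in members, and for motor neurons *Lhx3*, *Chat* and *Olig2* were. The V3 gene *Nkx2-2* was at 0, and *Uncx* was at 107.0 and 144.2 CPM. The V2b genes *Gata2* and *Tal1* gave 5 and 3 UMIs. Since several lists share *Lhx5* and *Pax2*, their counts are not independent.

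Within the members, some genes were found in the same cells and others apart. *Gad2* was found in 73.0% (65.5% to 79.6%) of the 163 members with *Pax2* and in 30.9% (23.2% to 39.4%) of the others, and in 59.8% and 22.2% after thinning. *Pou4f1* showed the reverse, in 4.91% of the members with *Pax2* and 30.1% of those without it. It was found in 57.8% (42.2% to 72.3%) of the 45 members with *Foxd3*, a factor of dI2 and V1 neurons and of neural crest, against 9.06% (5.83% to 13.3%) of the others. In thinned cells these shares were 35.7% and 7.31%, and members with *Foxd3* were deeper, with a median of 12214 UMIs against 9264. *Foxd3* and *Pou4f1* were found together in 26 members, of which 1 held *Pax2*. *Gad2* was found in 12.2% of the 49 members with *Pou4f1* and in 62.0% of the others, and *Neurog2* in 36.7% and 8.80%.

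The inhibitory genes overlapped further with *Lamp5* and the peptides. *Slc32a1* was found in 56.9% (49.0% to 64.5%) of members with *Lamp5* and 14.4% (8.89% to 21.6%) of those without it, and *Cartpt* in 62.3% and 23.5%. *Pnoc* was found in 48.1% of members with *Cartpt* and 17.1% of the others. *Sst* was spread evenly over *Pax2*, in 43.6% and 46.3% of members with and without it. *Robo3* and *Nrgn* went together: *Nrgn* was found in 59.4% (51.3% to 67.1%) of members with *Robo3* and 9.35% (5.07% to 15.5%) of the others. *Pnoc* and *Robo3* were found apart, with *Robo3* in 33.3% of members with *Pnoc* and 62.6% of those without it. *Tfap2b* was found in 81.0% of the members with *Skor1*, a corepressor gene of dI4 and dILA neurons, and in 43.8% of the others. These shares describe cells of 1 library and were read from 552 ordered gene pairs.

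**Figure D3:**
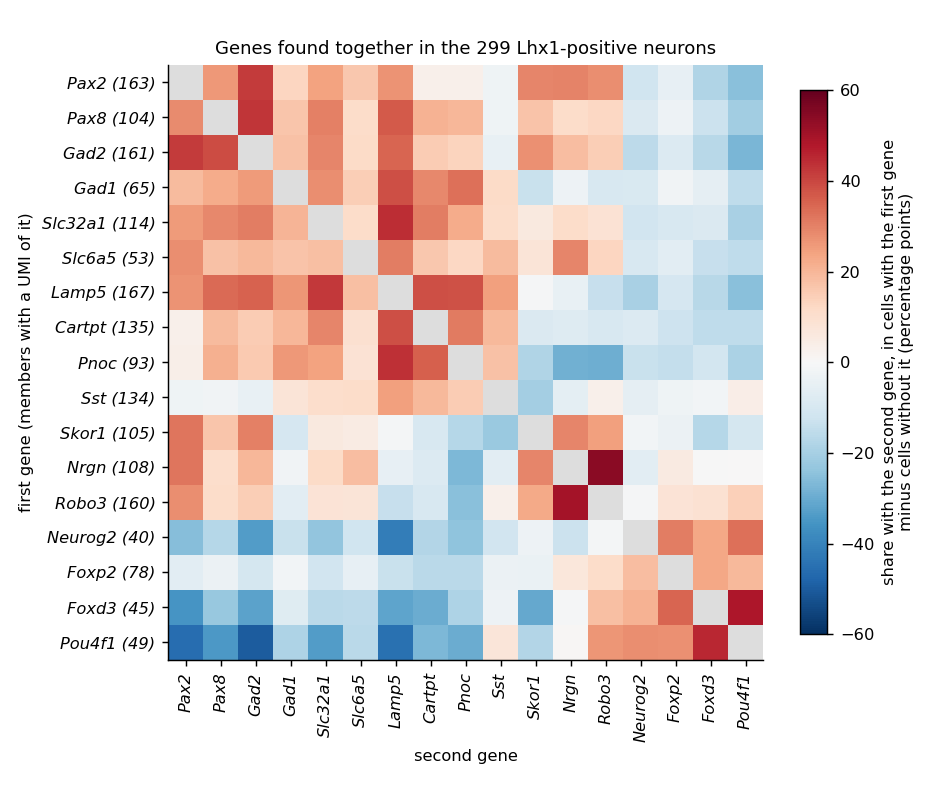
For each pair of genes, the share of members with the second gene (columns) among members with the first (rows, number of cells in brackets) minus its share among members without it, in percentage points of the 299 *Lhx1*-positive neurons. Red blocks join *Pax2*, *Pax8*, *Gad2*, *Slc32a1* and *Lamp5*, *Robo3* with *Nrgn*, and *Foxd3* with *Pou4f1*, and blue blocks part *Pou4f1* and *Neurog2* from the inhibitory genes.

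Members with more *Lhx1* held *Pax2* more often, although depth was near the same. In members with 1, 2 to 3, 4 to 7 and 8 or more *Lhx1* UMIs (35, 70, 95 and 99 cells) the median depth was 9484, 10078, 9478 and 9445 UMIs. *Pax2* was found in 14.3%, 44.3%, 60.0% and 70.7% of them, and *Robo3* in 20%, 44.3%, 53.7% and 71.7%. *Gad2* was found in 28.6%, 50%, 56.8% and 62.6%. The peptide genes did not follow this order, with *Cartpt* in 40.0%, 51.4%, 49.5% and 38.4% and *Sst* in 40.0%, 44.3%, 47.4% and 44.4%. *Pnoc* was found in 25.7%, 41.4%, 32.6% and 24.2%. The interval of the class with 1 UMI is wide (4.81% to 30.3% for *Pax2*).

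**Figure D4:**
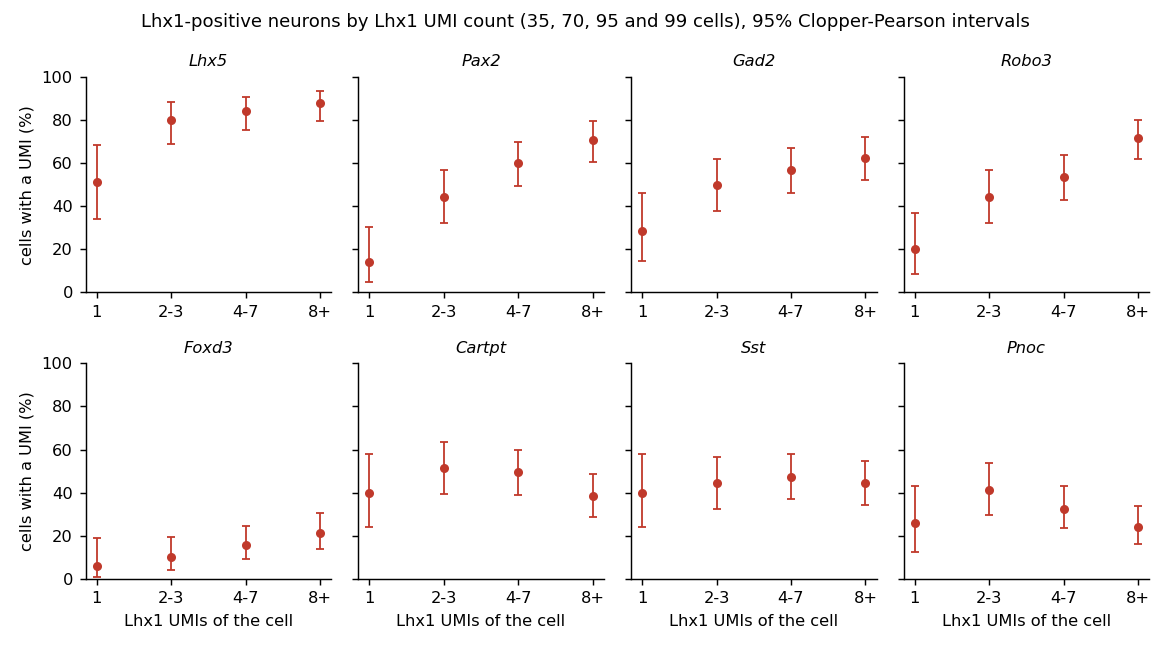
Share of *Lhx1*-positive neurons with a UMI of each of 8 genes, by the number of *Lhx1* UMIs of the cell (1, 2 to 3, 4 to 7, 8 or more), with 95% Clopper-Pearson intervals. The shares of *Pax2* and *Robo3* are lowest in cells with 1 *Lhx1* UMI and highest in those with 8 or more, while those of *Cartpt*, *Sst* and *Pnoc* show no such order.

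Hox genes, whose expression reflects position along the body axis, were near in level in both neuron sets. Of 39 Hox genes 18 had 50 CPM or more, and *Hoxa10* was the sole gene called, at 43.4 CPM in members and 97.7 CPM in *Lhx1*-negative neurons, and 0 were called without other-type cells. Summed over the clusters, paralogue group 9 was at 1118 CPM (1087 to 1149) in members, 1259 CPM in *Lhx1*-negative neurons and 478.9 CPM in neural progenitors. *Hoxb9* was found in 96.0% of members and stood at 461.6 CPM, and *Hoxc10* stood at 164.7 CPM. Group 10 summed to 209.6 CPM, group 11 to 1.12 CPM, and groups 12 and 13 to 0 UMIs. Of the 10 telencephalon genes 0 reached 50 CPM, so this list could give no call. Of the 15 genes of diencephalon and hypothalamus 1 did, *Barhl2*, which was called lower in members. The forebrain and midbrain gene *Otx2* was at 0 UMIs in members.

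**Figure D5:**
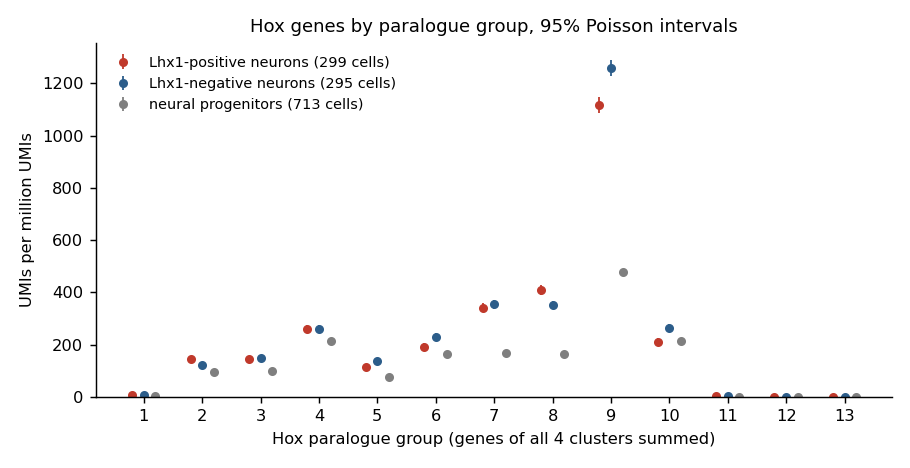
Summed level of the Hox genes of each paralogue group over all 4 clusters, in CPM with 95% Poisson intervals, in *Lhx1*-positive neurons (red), *Lhx1*-negative neurons (blue) and neural progenitors (grey). In each set group 9 is the highest and groups 11 to 13 are at or near 0; the members' group 9 sum is 1118 CPM.

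The same rule found few neurons at the earlier days. It selected 372 of 7202 cells at day 4 (5.17%), 50 of 7408 at day 5 (0.675%) and 7 of 5850 at day 6 (0.120%). Outside the rule genes, the day 4 and day 5 cells held few of the members' markers: a median of 3 of the 26 pan-neuronal genes was found in both, *Tubb3* in 37 of 372 and 1 of 50 cells, and *Lhx5* in 1 and 4 cells. *Elavl3*, a gene of the rule, was found in 29 of the day 4 and 18 of the day 5 cells. At day 4 the cells mostly met the rule through *Stmn2* (371 cells) and *Ina* (355 cells). The 7 cells of day 6 held a median of 15 pan-neuronal genes, with *Tubb3* and *Lhx5* in 6 of them each and *Pax2* in 4. Over all cells that passed the filters, *Lhx1* was at 85.5, 10.7, 3.95 and 14.1 CPM at days 4, 5, 6 and 11, while *Cartpt* went from 0.0176 CPM at day 4 to 33.9 CPM at day 11 and *Sst* was at 3.71 CPM at day 6 and 33.5 CPM at day 11. Each day is 1 library, so day and library cannot be told apart.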

How the data were processed

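Single-cell RNA was captured from Zx1 gastruloids at 4 time points, with 1 library each. The deposited matrices hold UMI counts per gene and cell, which the authors made with Cell Ranger, named as version 3.1.0 in the submitters' processing notes, on mm10; the matrix headers name 3.1.0 and 6.0.1. The gene annotation used for counting and the strand setting are not given in the sources used here. Cells were filtered on at least 2000 UMIs and under 20% mitochondrial UMIs, and no cells were clustered.

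The members and gene lists (45 lists, 461 genes, of which 459 are in the files) were chosen with earlier results of these data known. Counts were summed over the cells of a set, scaled to CPM, and compared as the ratio of (CPM + 10), with 2-fold as the limit for a call among genes with 50 CPM or more in the higher set. Since no day was repeated, significance was not tested, and intervals treat UMIs or cells as independent. Shares were also taken after thinning each cell to 5000 UMIs. Named genes are the 15 highest and 15 lowest ratios among genes found in at least 10% of cells of the higher set (mitochondrial, ribosomal and rule genes left out), list genes past 2-fold and up to 6 list genes of highest CPM. Doublets were scored against 2 simulated doublets per cell in 30 principal components of 2000 variable genes, and were removed in an alternative only. Alternatives covered depth, mitochondrial share, the rule on neuron genes, *Lhx1* and *Atoh1*, doublets, cells with other-type markers, the constant added, the CPM minimum, thinning and means over cells. Promoter windows are those of RefSeq on GRCm38.p6, and gene positions follow the GRCm38 annotation. Windows on chromosome 18 were left out of the motif search. Scripts ran under Python 3.11.15 with numpy 2.4.6, scipy 1.17.1 and pandas 2.3.3. The calls were tested on simulated Poisson sums of UMIs. These held no spread between cells, doublets or cells of other types, so that test does not cover such effects.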

Additional observations from a re-analysis of the deposited data

How the results depend on the processing

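No paired analysis was possible because each day has 1 library. The number of members lay between 229 and 299 under all alternatives. The *Lhx1*-positive share of neurons (48.0%) was 43.0% with *Lhx1* at 2 or more UMIs and 54.2% without other-type cells and with *Atoh1* at 0 UMIs in both sets, a setting added after seeing the data. The count of higher genes (63) was 41 as a mean of the CPM of each cell (26 of them shared), 31 with 50 CPM added, 86 with a minimum of 20 CPM and 93 with no minimum. The count of lower genes (28) was 45 without other-type cells, 48 when *Atoh1* was at 0 in both sets as well, 11 with 50 CPM added and 51 with no minimum CPM. With at least 3 of the 4 neuron genes in both sets, 53 genes were called higher (48 shared) and 32 lower (26 shared). Of 49 named genes past 2-fold, 44 to 49 kept their direction and 32 to 49 stayed past 2-fold. The reversed ones were muscle genes. Their log2 ratios without other-type cells, with *Atoh1* at 0 as well, and as a mean over cells without other-type cells were -0.17, -0.26 and -0.17 for *Tnnt1*, -0.06, -0.16 and -0.18 for *Tnnt2*, -0.14, -0.02 and -0.06 for *Nppa*, and -0.22, -0.33 and -0.09 for *Tnni1*. For *Actn2* the last 2 were -0.02 and -0.07, and *Nppa* was at -0.05 without the 8% highest doublet scores. The settings that combine choices were added after seeing the data, and the cause was not tested. Depth limits genes with few UMIs: for a gene at 0 UMIs in the members the exact interval reaches 0.824 CPM.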

Other observations

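Transcription factor genes outside the lists also differed between the neuron sets, and were chosen after their values were seen. *Lbx1*, a homeobox gene of the dI4 to dI6 classes, was at 71.1 CPM in *Lhx1*-positive and 28.3 CPM in *Lhx1*-negative neurons, and was found in 54.5% and 25.4% of cells. *Tfap2a*, the AP-2 paralogue of *Tfap2b*, was at 63.7 and 18.6 CPM and was found in 47.5% and 18.0% of cells. The calcium-binding protein gene *Cabp1* was at 78.7 and 31.2 CPM. All 3 were called higher with and without cells that held markers of another cell type.

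Several of the genes called lower in members belong to no list of spinal neuron classes. *Crabp1*, a retinoic acid binding protein, was at 1468 and 3756 CPM and remained in 64.5% of members. The POU factor gene *Pou3f1* was at 77.5 and 250.1 CPM, *Reln*, the gene of an extracellular guidance protein, at 24.4 and 85.8 CPM, and *Maf*, a transcription factor gene, at 28.8 and 101.5 CPM. *Nrn1* was at 31.3 and 125.6 CPM, *Tmem163* at 37.8 and 142.5 CPM and *Tshz1* at 62.3 and 170.8 CPM. *Gm28050*, a noncoding RNA gene at chr5:106500894-106574718, was at 12.3 and 118.0 CPM and was found in 7.36% and 46.4% of cells. The neuron-differentiation genes *Ebf1* (284.9 and 622.2 CPM) and *Ebf3* (56.5 and 156.1 CPM) were called lower as well. The 15 cell cycle genes summed to 494.3 CPM in members and 734.4 CPM in *Lhx1*-negative neurons, and to 101.9 and 430.5 CPM without other-type cells. Of the 5 with 50 CPM or more 0 were called, while 3 were called lower without other-type cells.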
